A study of Homo sapiens with 2 samples.

Results

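The interferon-induced protein ISG15, the enzymes UBE2L6 and HERC6, the ADP-ribosylation proteins PARP9 and PARP14, and the nuclear body proteins SP100 and SP110 were examined in H1299 cells, a permanent line from a human non-small cell lung carcinoma. Their features were found by the gene name that the platform's annotation gives to each feature ID. All 7 genes had 1 feature each, none shared with another gene, among the 243 features of the deposited table. The miR-138 mimic group and the NC mimic group were each 1 culture on 1 array. Both were H1299 cells given a synthetic microRNA duplex by lipofection for 48 h. They differed by which mimic was supplied, and there was no untransfected group. With 1 array per mimic no difference has an error or a test, so "higher" and "lower" speak of the arrays themselves.

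ISG15 is a ubiquitin-like protein that interferon induces and that cells attach to other proteins. UBA7 activates it, UBE2L6 carries it as the conjugating enzyme, HERC5 is the main human ligase, and USP18 removes it again. HERC6 is the close relative of HERC5, and in mice it is the main ISG15 ligase. PARP9 and PARP14 belong to the macrodomain branch of the PARP family, which adds ADP-ribose to proteins or reads it. PARP9 works in a complex with the ubiquitin ligase DTX3L. SP100 is a resident protein of PML nuclear bodies, which restrict incoming viral genomes, and SP110 is its relative and a chromatin-binding nuclear protein. Many interferon-induced genes carry the interferon-stimulated response element (ISRE) or a different element, the gamma-activated site (GAS), near their start.

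The labels name the mimic as miR-138 and give neither its arm nor its sequence. RefSeq (GRCh38.p14) lists 2 human genes for miR-138, MIR138-1 on chromosome 3 and MIR138-2 on chromosome 16, with 1 mature 5p sequence of 23 bases in common. It is shown because it is the usual mature product, with the seed (bases 2 to 8) in capitals.
hsa-miR-138-5p: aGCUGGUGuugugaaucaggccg

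The following promoter stretches are shown because they hold the interferon-related motifs found for the 7 genes. RefSeq windows of 300 bases, from 250 before to 50 after a gene start, were found for all 7 genes, 11 windows in all. The ISRE core was searched on both strands as GAAA, any 2 bases and GAAA again, and the GAS core as TTCNNNGAA. A wider ISRE form with 3 free bases between both GAAA parts was searched as well. Capitals mark the matches, each sequence is on its gene's strand, and distances count back from the gene start. The first stretch (GRCh38.p14, chr1:1013324-1013439, plus strand) lies 173 to 58 bases before the start of ISG15 and holds a pair of overlapping ISRE cores, at -113 to -104 and at -107 to -98.
ISG15: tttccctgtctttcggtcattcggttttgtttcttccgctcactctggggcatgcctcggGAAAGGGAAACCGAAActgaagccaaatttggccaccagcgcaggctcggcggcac
The PARP14 stretch (chr3:122680770-122680838, plus strand) holds a GAS core at -40 to -32 and an ISRE core at -29 to -20, with no shared bases.
PARP14: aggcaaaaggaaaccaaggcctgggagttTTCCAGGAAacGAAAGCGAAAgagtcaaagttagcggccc
The PARP9 stretch (chr3:122564322-122564351, minus strand) holds the ISRE core in reverse, at -41 to -32 of 1 of its 2 listed starts.
PARP9: gggcgcaaagTTTCAGTTTCgcttccctgg
SP110 had no match to the core with 2 free bases, and each of its 2 windows held the form with 3. At the inner start (chr2:230220005-230220065, minus strand) it lay at -51 to -41 beside a GAS core at -38 to -30. At the outer start (chr2:230225706-230225766, minus strand) it lay at -100 to -90.
SP110 inner start: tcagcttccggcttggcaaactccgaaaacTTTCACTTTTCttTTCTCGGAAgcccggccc
SP110 outer start: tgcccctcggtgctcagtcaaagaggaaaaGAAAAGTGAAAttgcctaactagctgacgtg

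The table as a whole holds log2 signals from 3.0 to 14.07, and its smallest absolute difference between both arrays is 1.0. It is therefore limited to features that differ by at least 2-fold, and genes outside it were not analysed here. Of its 243 features, 104 were higher and 139 lower with the miR-138 mimic, which makes the share higher by a log2 difference of at least 1 equal to 42.8%. The feature of MIR138-1, which checks the labels, read 14.07 on the miR-138 mimic array and 6.13 on the NC mimic array. Of 25 listed cell type markers, 1 was in the table, the fibroblast gene DCN, at 4.55 with the miR-138 mimic and 7.02 with the NC mimic. The other 24 were not analysed here, so the cell line could not be checked against its markers, and the part of the DCN difference in the results was not tested.

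All 7 genes were higher on the miR-138 mimic array. The log2 differences, taken as miR-138 mimic minus NC mimic, ran from 1.06 to 1.82 with a median of 1.45, or 2.73-fold. The genes were chosen from these differences, so their direction is a description, and the count of 7 of 7 beside the 42.8% of the whole table is not read further. The median over all 243 features was -1.05, and over the 104 higher features it was 1.23. In order of difference the genes ran HERC6, ISG15, UBE2L6, PARP14, PARP9, SP100 and SP110. Values carry 2 decimals, so rounding alone can move a difference by up to 0.01. The genes of each functional group stood next to each other in this order, but the gaps did not set the groups apart. Between groups, UBE2L6 and PARP14 lay 0.08 apart and PARP9 and SP100 0.20. Within groups, HERC6 and ISG15 lay 0.28 apart, PARP14 and PARP9 0.16, ISG15 and UBE2L6 0.01 and SP100 and SP110 0.03.

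**Figure D1:**
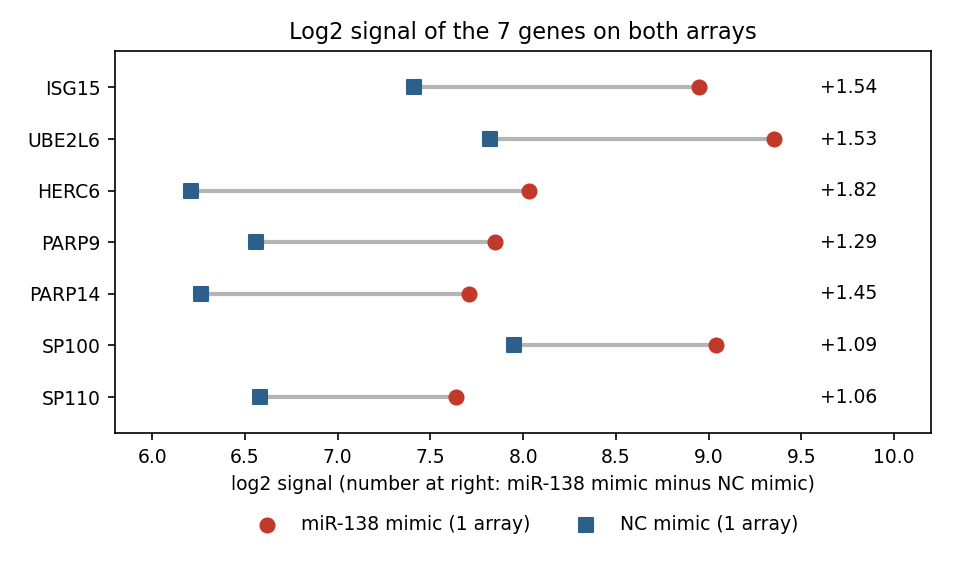
Log2 signal (horizontal axis) of each of the 7 genes on the miR-138 mimic array (red circles) and the NC mimic array (blue squares), 1 array each, with the difference printed at the right. All 7 circles lie to the right of their squares, with the widest gap for HERC6 (1.82) and the narrowest for SP110 (1.06). Signals of different genes come from different probes, so only the 2 points within a row can be set against each other.

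The ISG15 conjugation genes had the widest differences of the 3 functional groups. ISG15, the modifier itself, had a log2 signal of 8.95 on the miR-138 mimic array and 7.41 on the NC mimic array, a difference of 1.54 or 2.91-fold. UBE2L6, its conjugating enzyme, read 9.35 with the miR-138 mimic and 7.82 with the NC mimic, a difference of 1.53 or 2.89-fold. The modifier and its conjugating enzyme thus differed between the arrays by nearly the same amount, with 0.01 between them, which rounding alone can produce.

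HERC6 read 8.03 with the miR-138 mimic and 6.21 with the NC mimic. Its difference of 1.82, or 3.53-fold, was 0.28 above that of ISG15, and it stood at rank 16 of the 243 features. ISG15 stood at rank 28 and UBE2L6 at rank 29. These 3 were the members of the 7 with a difference of at least 1.5, a limit that 12.3% of all features passed in this direction. None of the 7 reached a difference of 2, which 9 features of the table did.

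Of the 10 genes listed for ISG15 conjugation, those 3 were in the table. The activating enzyme UBA7, the ligases HERC5, TRIM25 and ARIH1, the conjugating enzyme UBE2E1 and the proteases USP18 and USP21 were not analysed here. None of 34 other E2 enzymes and HERC ligases was in the table either. The protease side of the pathway had a relative there. USP41P, annotated in RefSeq as a pseudogene on chromosome 22 with the synonym USP18B, read 7.64 with the miR-138 mimic and 6.41 with the NC mimic, a difference of 1.23 or 2.35-fold. It came up as a feature close to PARP14 in its values, and is set beside the ISG15 genes here after its value was seen. Whether its probes also detect USP18 transcripts was not tested.

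The macrodomain PARP genes came next. PARP14, which transfers single ADP-ribose units, read 7.71 with the miR-138 mimic and 6.26 with the NC mimic, a difference of 1.45 or 2.73-fold. PARP9 read 7.85 with the miR-138 mimic and 6.56 with the NC mimic, a difference of 1.29 or 2.45-fold. The difference of PARP14 was thus 0.16 wider than that of PARP9, which exceeds rounding but has no replicate spread to be set against. PARP14 stood at rank 31 of the 243 features and PARP9 at rank 42.

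These were the 2 of 19 listed PARP and ADP-ribose genes in the table. In RefSeq the 2 genes lie close together on chromosome 3 with 2 coding genes starting between them, DTX3L and PARP15. Neither of these was analysed here. The ISRE core printed above for PARP9 covers the same bases of chromosome 3 as the one found at -6 to 4 of the DTX3L start. The genes PARP9 and DTX3L lie on opposite strands and share this 1 match.

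SP100 and SP110 had the narrowest differences. SP100, a resident of PML nuclear bodies, read 9.04 with the miR-138 mimic and 7.95 with the NC mimic, a difference of 1.09 or 2.13-fold. SP110 read 7.64 with the miR-138 mimic and 6.58 with the NC mimic, a difference of 1.06 or 2.08-fold. Only 0.03 separated the differences of both relatives. They stood at ranks 69 and 77, close to the 2-fold limit of the table.

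Just inside that limit SP110 shared its difference of 1.06 with GEM, HYCC2 and the oligoadenylate synthetase gene OAS1. The next difference below was 1.05, which 4 features had, ELOVL4 among them. In RefSeq SP110 and SP100 are the outer genes of a cluster on chromosome 2 with SP140 and SP140L between them. Both inner genes and the remaining listed nuclear body genes, PML and DAXX among them, were not analysed here, which leaves 2 of 16 listed genes in the table.

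**Figure D2:**
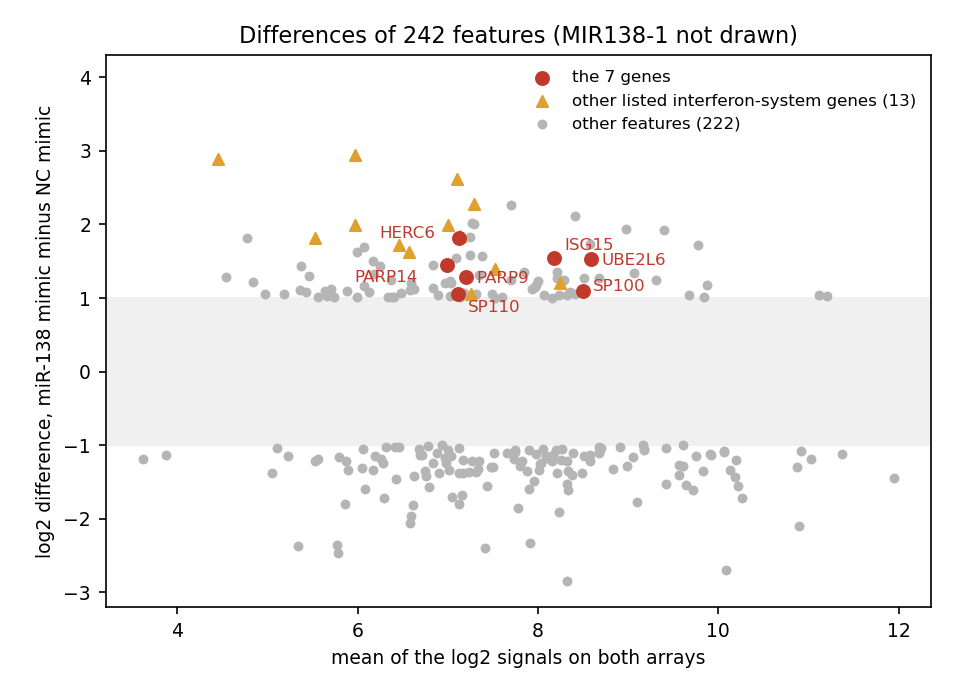
Log2 difference, miR-138 mimic minus NC mimic (vertical axis), against the mean of both log2 signals (horizontal axis) for 242 features, with MIR138-1 left out for scale. The 7 genes (red) lie between 1.06 and 1.82, the 13 other listed interferon-system genes (orange triangles) between 1.06 and 2.95, and the grey band from -1 to 1 is empty because the table holds no feature there.

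The 7 genes were set beside the other genes of the lists, which were compiled with earlier results of these data known. Of 159 further symbols, 13 were in the table, all from the 63 symbols of the lists of sensors and effectors and of other interferon-induced genes. Of these 13, 13 were higher with the miR-138 mimic, beside 104 of all 243 features. Because the lists were open to choice, this count and the counts below are descriptions and are not read further. The complement factor gene CFB, which interferon can induce, was on none of the lists and was lower, with a difference of -1.32. The median difference was 1.45 for the 7 genes and 1.85 for these 13, whose range was 1.06 to 2.95. At a limit of 1.5, 3 of the 7 and 10 of these 13 were past it, beside 30 of all 243 features. At a limit of 2, 0 of the 7 and 4 of the 13 were past it, beside 9 of the 243. The NC mimic signals had a median of 6.58 for the 7 and 5.79 for the 13. No test was made of the gap in differences.

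The list of sensors and effectors for double-stranded RNA and DNA had 6 of its 16 genes in the table, with a median of 1.52. The sensors IFIH1 and RIGI were at 2.28 and 1.99, and the helicase-like DDX60 at 1.63. The oligoadenylate synthetase family members OASL and OAS1 were at 1.40 and 1.06, and the nucleotide-hydrolysing enzyme SAMHD1 at 1.20. The 7 genes fell within the range of this list.

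The list of other interferon-induced genes had 7 of 47 in the table, with a median of 1.99. IFI44L (2.95), IFIT1 (2.89) and SAMD9 (2.62) were above HERC6, as were IFI44 (1.99) and IFIT3 (1.85). SAMD9L (1.81) and the chemokine CCL5 (1.72) lay between HERC6 and ISG15. On the NC mimic array the genes of this list read 3.0 to 6.21, and the 7 genes 6.21 to 7.95. The value of 3.0, for IFIT1, was the lowest signal of the table. Whether dim NC mimic signals bear on these differences was not tested.

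None of the 24 listed genes of interferon production and signalling was in the table. That list held the interferon genes IFNB1 and IFNL1, the receptor genes IFNAR1 and IFNAR2, the kinases JAK1 and TYK2, and the transcription factor genes IRF7 and IRF9. None of them was analysed here, and the table leaves out whatever differed by less than 2-fold.

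**Figure D3:**
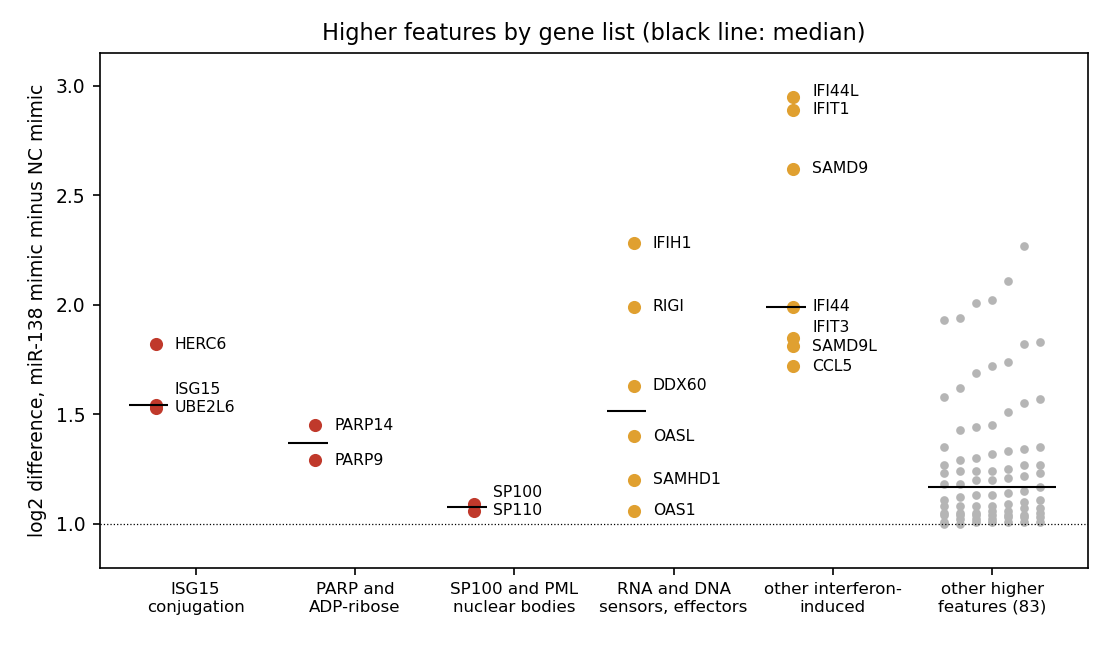
Log2 differences, miR-138 mimic minus NC mimic (vertical axis, starting at 0.8), of the higher features by gene list, 1 point per feature with a black line at each median. The 7 genes are red, the 13 other listed genes orange, and the 83 other higher features (grey, MIR138-1 left out) have a median of 1.17.

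The features nearest to each gene were found by the Euclidean distance over its 2 log2 signals, across the features with 1 gene. This measure rests on 2 arrays and sets signals of different probes side by side, so it describes likeness on these arrays only. The interferon-induced gene IFIT3 was nearest to HERC6, at 8.06 with the miR-138 mimic and 6.21 with the NC mimic, a distance of 0.03, followed by ANKRD1 at 0.18. For ISG15 the nearest were THAP6 and SERTAD1, at distances of 0.14 and 0.20. UBE2L6 had HDAC9 and ETS1 nearest, and SP100 had ETS1 and STC2. For PARP14 the nearest were SNAPC1 and USP41P, and for PARP9 they were FAM24B and OAS1. SP110 had ELOVL4 and BEX4 at distances of 0.04 and 0.05. In the order of differences, ISG15 and UBE2L6 stood between SNAPC1 (1.55) and ZNF235 (1.51), and HERC6 between ANKRD1 (1.83) and SAMD9L (1.81), level with DSCR9.

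The promoter windows describe the sequence near the start of these genes. The 7 genes and the lists were chosen as interferon-induced genes, a class known for the ISRE, so the motif counts are not independent of that choice. The ISRE core with 2 free bases was in a window of 3 of the 7 genes, ISG15, PARP9 and PARP14. It was in 3.57% of all 35116 RefSeq windows of the same length and in 4.38% of the 27305 genes that have one. Of the 11 other listed genes of the table that have a window, 7 held it. Among the remaining higher features with 1 gene it was found for 1 of 56 genes, and among the lower features for 6 of 105. The longer form, in which CT follows the core, was found for ISG15 and PARP9, 2 of 7 genes. It was in 0.273% of all windows and in 0.322% of all genes. Of the 11 other listed genes 4 held it, of the 56 remaining genes of higher features 0, and of the 105 of lower features 2.

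UBE2L6, HERC6 and SP100 had no match to any of the searched forms in these windows, which says only that these letters are not there. Whether a match goes with the size of a difference was not tested. The form with 3 free bases was found for SP110, 1 of 7 genes, and for 3.54% of all genes. Within the table it was found for 5 of 74 genes of higher features and 7 of 105 of lower features. Those 5 were SP110 and 4 of the 11 other listed genes, with 0 of the 56 remaining genes of higher features. The GAS core was found for PARP14 and SP110, 2 of 7 genes, and for 9.38% of all genes. Within the table it was found for 12 of 74 genes of higher features and 16 of 105 of lower features. A match describes the letters and does not show that a factor bound there in these cells.

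**Figure D4:**
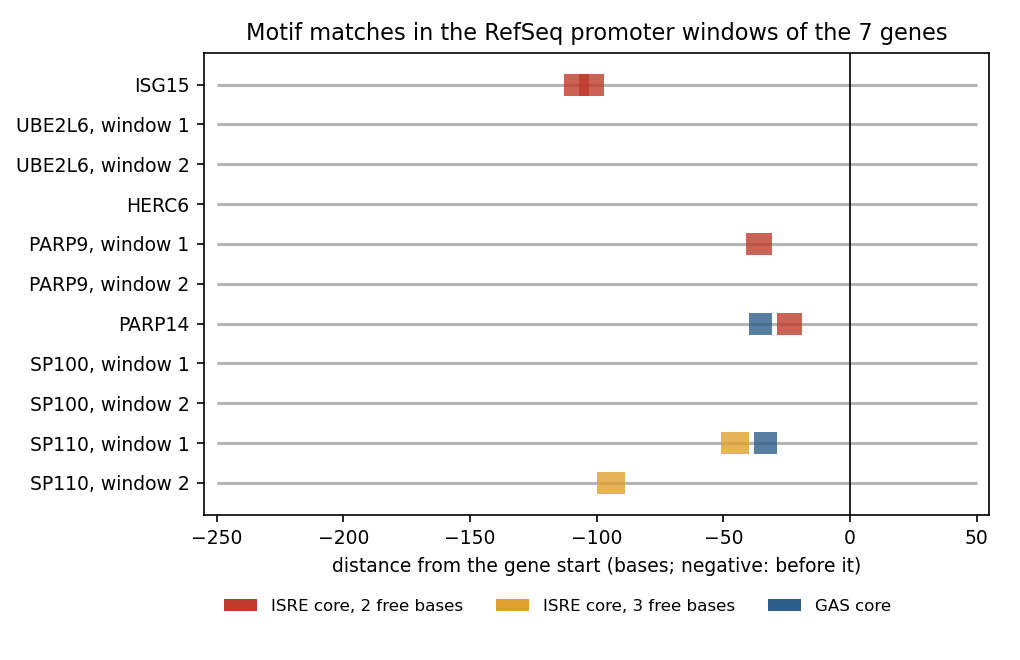
Motif matches (coloured bars) along the 11 RefSeq promoter windows of the 7 genes, by distance from the gene start in bases (horizontal axis), with windows of a gene numbered by their order on the chromosome. Matches to the ISRE core with 2 free bases (red) lie in windows of ISG15, PARP9 and PARP14, the form with 3 free bases (orange) in both windows of SP110, and the GAS core (blue) in 1 window each of PARP14 and SP110.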

How the data were processed

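The deposited values are log2 signals with 2 decimals, 1 column for each of the 2 arrays and 1 row for each of 243 features. Per the submitters' processing notes the authors used Affymetrix Expression Console. How the signals were summarised, normalized and filtered, and with which software version and genome build, is not given in the sources used here. Base 2 was inferred from the range of the values. The labels' protocols give H1299 cells in medium with 10% serum, lipofection at 70% confluence and biotin-labelled cDNA.

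The platform's annotation supplied the gene names, with 220 features given 1 gene, 10 several and 13 none. Of the 220, 215 were matched to RefSeq (GRCh38.p14) by gene identifier, all 7 genes among them. Differences are the miR-138 mimic value minus the NC mimic value. As there was 1 array per mimic, no test was run and the number of arrays limits the precision. The genes and lists were chosen with earlier results of these data known. Named genes were the 7, all listed genes in the table, the 2 features nearest to each of the 7, those next to them in the order of differences, and MIR138-1. USP41P in its place beside the ISG15 genes, and the genes of the closing section with an ISRE core outside the lists, were chosen after their values were seen. Motif search was tested on simulated sequences with planted sites. A planned comparison of protein sequences was not run. One listed gene is not reported here. Alternatives were centring, limits on level and fold, other summaries and other motif forms. Python 3.11.15, NumPy 2.4.6, pandas 2.3.3 and Matplotlib 3.10.9 were used.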

Additional observations from a re-analysis of the deposited data

How the results depend on the processing

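The direction of all 7 genes was the same under every alternative that gave a value, but since no feature of the table lies between -1 and 1 this says nothing about stability. Subtracting each array's own median over the features of the table added 0.06 to each difference. The table is limited to features that differ by at least 2-fold, so this shift does not measure an offset between the whole arrays. Centring gave a median of 1.51 for the 7 genes, 1.60 for the ISG15 conjugation list and 1.43 for the PARP list. It gave 1.14 for the SP100 and nuclear body list, 1.58 for the sensor list and 2.05 for the other interferon-induced genes. The mean of the 7 differences was 1.40, and the log2 ratio of their summed linear signals was 1.39. All 7 genes lay above the lowest 25% of mean levels, where 69 features of the table were higher. The median of the sensor list was 1.40 there. For the other interferon-induced genes it was 2.24, from SAMD9 and IFIT3 alone. Above the median level 3 of the 7 were left (ISG15, UBE2L6 and SP100), with a median of 1.53, beside 40 higher features of the table. There the medians were 1.54 for the ISG15 list and 1.09 for the SP100 list, from SP100 alone. For the sensor list it was 1.30, from OASL and SAMHD1 alone. No gene of the PARP list or the other interferon-induced genes was left. A log2 limit of 1.5 left 3 of the 7 genes and 30 features, and a limit of 2 left 0 of the 7 and 9 features. With 3 free bases, 1 gene in place of 3 held the ISRE core. No paired analysis was possible because each mimic had a single array, and no replicate could be left out. What limits precision is the number of arrays.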

Other observations

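The ISRE core of ISG15, PARP9 and PARP14 was also present in promoter windows of genes that were lower with the miR-138 mimic, 6 of 105. It was found for 4.38% of all genes and for 7 of the 11 other listed genes of the table that have a window. The lower genes were picked out once their values were known. CFB, a complement factor that interferon can induce, has the longer form in which CT follows the core, as ISG15 and PARP9 do. The ID of its feature places it on an alternate haplotype sequence of chromosome 6. CFB read 8.17 with the miR-138 mimic and 9.49 with the NC mimic, a log2 difference of -1.32. NPR3, the natriuretic peptide clearance receptor, has the longer form too and read 7.1 with the miR-138 mimic and 8.69 with the NC mimic, a difference of -1.59. The shorter core was found for TSPAN8 (-2.37), SGK1 (-1.08), ABCC2 (-1.06) and MAP3K8 (-1.05). Among the higher features outside the gene lists, FAM169A (1.13) held the shorter core.

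Among the listed interferon-system genes, the core was found for IFI44L, IFI44, IFIH1, DDX60, SAMD9, IFIT3 and IFIT1, whose differences ran from 1.63 to 2.95. RIGI (1.99), SAMD9L (1.81), SAMHD1 (1.20) and OAS1 (1.06) have a window and did not hold it. The ISG15 window shared its arrangement, a pair of cores that overlap and lie on the same strand, with IFIH1, whose pair lies at -159 to -150 and at -153 to -144 on the opposite strand.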
